A study of Mus musculus with 36 samples.

Results

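A set of 10 imprinted genes was followed through the 9 groups of progenitor cells of the developing kidney: Grb10, Plagl1, Peg13, Nnat, Peg3, Mest, Peg10, Sgce, Snrpn and Impact, which are 10 of the 22761 genes in the deposited values. They were chosen by name, with earlier results of these data known, because the line from which embryonic stem cell-derived ureteric bud cells were made and the line from which the nephron and stromal progenitors were made had shown different patterns for some of them. Their levels in the stem cell-derived groups are therefore given as a description, with no test, while their levels across age and cell type in ex-fetu kidneys, and between the 2 progenitor types made from 1 line, were tested. An imprinted gene is transcribed mainly from the copy inherited from 1 parent. The choice rests on DNA methylation that the egg or the sperm lays down at control regions and that dividing cells then copy. Grb10 is transcribed from the maternal copy in most tissues, and the other 9 genes from the paternal copy. Such genes are known for acting on embryonic growth, and the methylation behind them is known to be lost or gained in cultured stem cells; neither methylation nor the parental origin of a read was measured here.

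Each group had 4 libraries of sorted cells. Cells of the ureteric bud (UB) and progenitors of the nephron (NP) and of the stroma (SP) came from kidneys of CD1 mouse embryos at E11.5 and at E12.5, and each library pooled the embryos of 1 mouse. The iNP and iSP cells were derived from the E14 mESC line, and the eUB cells from a line labelled Sox9-mCherry-mESC; each library was 1 batch of embryoid bodies from 1 line. The study's methods name a Sox9-mCherry line for the RNA but describe the making of a Sox8-mCherry line, from IB10 mESC, so the identity and parent of the eUB line are uncertain here. UB cells were sorted with RET and EpCAM, eUB cells with EpCAM and mCherry, and NP and SP cells (or iNP and iSP cells) by high ITGA8 with low PDGFRA and by low ITGA8 with high PDGFRA, after cells with CD31, EpCAM or RET had been gated out. Stem cell-derived and ex-fetu cells thus differed in strain, in source and in culture. The eUB cells differed from iNP and iSP cells in line, in cell type and in differentiation protocol (growth factors and Matrigel). Within each of these comparisons the differences cannot be told apart. Samples titled E11.5 UB carry E12.5 as their source and those titled E12.5 UB carry E11.5. The titles were used. The direction of every UB comparison with age depends on them, and so does which UB libraries stand for E11.5 or E12.5 in each comparison of UB with NP, SP or eUB cells.

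Values are normalised CPM: CPM, reads on a gene relative to all reads on genes of the library, to which the authors had applied normalisation factors from edgeR. The 36 libraries held between 13 and 52.5 M reads on genes, and 3 reads, taken as the limit of detection, stood for 0.0605 to 0.223 normalised CPM. The sort antigens followed the labels: Epcam was 649 ± 43.2 in eUB (SD, n = 4) and at most 33.0 in any iNP or iSP library, and Pdgfra was 410 ± 32.0 in iSP and 31.6 ± 11.2 in iNP. Some other markers were lower in the stem cell-derived cells. Foxd1, which marks stromal progenitors, was 15.2 ± 3.67 in iSP and 410 ± 126 in E11.5 SP. Six2, which marks nephron progenitors, was 139 ± 15.9 in iNP and 590.2 ± 35.7 in E11.5 NP. Calb1, a UB marker, was 41.4 ± 6.57 in eUB and 608 ± 68.8 in E11.5 UB. Sums over the 8 markers of each type differed less. SP markers summed to 1093 to 1209 in iSP and 1310 to 1719 in E11.5 SP. NP markers summed to 511 to 924 in iNP and 1433 to 1617 in E11.5 NP. UB markers summed to 2176 to 2391 in eUB and 3216 to 3455 in E11.5 UB. Replicate 1 of E12.5 UB stood apart (r = 0.967 with the mean of its group mates): its 8 UB markers summed to 1946 against at least 2860 in the other 3 libraries, while its 8 NP markers summed to 444 and its 8 SP markers to 274, against at most 84.8 and 95.9 in the others. Its endothelial markers summed to 84.4 and its skeletal muscle markers to 42.2, against medians of 5.93 and 1.42 for the group. Replicate 2 of iNP (r = 0.975) and replicate 1 of E12.5 SP (r = 0.973) also stood apart, and calls of the 10 genes that change without any of the 3 are given below with both values. Summed macrophage markers were 53.6 to 87.7 in E11.5 UB, 40.7 to 72.2 in E12.5 UB and at most 2.17 in every library of the other 7 groups.

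Promoter sequences were looked up for these genes. RefSeq windows (GRCm38.p6, 250 bases before to 50 bases after a transcript start) were at hand for 6 of the 10, with 12 starts in all. Some of these starts, among them those shown for Plagl1 and Mest, lie inside the span of the gene. The hexamer TGCCGC, whose methylated form is bound by ZFP57, a zinc finger protein that keeps imprints through cell division, was sought on both strands (GCGGCA on the other). It was in 6 of the 12 windows and in 11.6% of the 32851 promoters of the same length. A pair of these 6, both of Mest, overlap almost fully and hold the same copies. Grb10, Plagl1 and Nnat are shown because they were close to absent in at least 1 stem cell-derived group, and Peg3 and Mest because they were not; capitals mark the hexamer.
Grb10, chr11:12037371-12037670, minus strand: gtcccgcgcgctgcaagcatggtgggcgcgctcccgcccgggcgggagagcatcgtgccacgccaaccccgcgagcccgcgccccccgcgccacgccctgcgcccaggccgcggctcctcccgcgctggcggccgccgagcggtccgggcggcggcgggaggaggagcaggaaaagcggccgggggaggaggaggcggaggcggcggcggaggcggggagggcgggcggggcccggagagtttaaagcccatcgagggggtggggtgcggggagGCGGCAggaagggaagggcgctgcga
Plagl1, chr10:13090582-13090881, plus strand: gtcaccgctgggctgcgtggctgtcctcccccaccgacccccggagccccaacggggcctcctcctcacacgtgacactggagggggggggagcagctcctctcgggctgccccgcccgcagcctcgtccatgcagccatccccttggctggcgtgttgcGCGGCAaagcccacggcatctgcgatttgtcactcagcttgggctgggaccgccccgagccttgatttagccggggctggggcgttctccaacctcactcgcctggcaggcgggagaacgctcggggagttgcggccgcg
Nnat, chr2:157559828-157560127, plus strand: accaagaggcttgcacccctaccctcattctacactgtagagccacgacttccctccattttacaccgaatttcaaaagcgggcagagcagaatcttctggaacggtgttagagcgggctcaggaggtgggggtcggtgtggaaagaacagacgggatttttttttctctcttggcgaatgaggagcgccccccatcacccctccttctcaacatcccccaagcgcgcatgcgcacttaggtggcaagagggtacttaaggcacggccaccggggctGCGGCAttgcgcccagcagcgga
Peg3, chr7:6730370-6730669, minus strand: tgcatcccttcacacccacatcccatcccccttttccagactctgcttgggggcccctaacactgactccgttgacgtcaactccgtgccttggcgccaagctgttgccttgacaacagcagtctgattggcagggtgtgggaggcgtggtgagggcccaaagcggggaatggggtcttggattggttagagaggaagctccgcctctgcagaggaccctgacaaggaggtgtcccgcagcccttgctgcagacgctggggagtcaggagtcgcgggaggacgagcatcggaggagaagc
Mest, chr6:30737800-30738099, plus strand: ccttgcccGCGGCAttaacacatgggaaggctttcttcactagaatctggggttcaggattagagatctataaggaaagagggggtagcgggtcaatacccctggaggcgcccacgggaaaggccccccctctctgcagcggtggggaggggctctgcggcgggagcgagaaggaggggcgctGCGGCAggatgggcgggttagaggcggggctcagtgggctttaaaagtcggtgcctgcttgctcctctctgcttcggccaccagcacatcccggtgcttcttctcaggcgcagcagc
The Grb10, Plagl1 and Nnat windows each held 1 copy, the Mest window held 2 and the Peg3 window held none. Windows at another start of Grb10 and of Mest, not shown, held no copy, with 9 and 8 CpG pairs, and 1 of the 4 Snrpn windows held a copy. CpG pairs numbered 45 in the Grb10 window, 26 in Plagl1, 17 in Nnat, 13 in Peg3 and 17 in Mest, against a median of 7 over all promoters. A match only describes these letters.

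Grb10, an adaptor protein that binds the insulin and IGF1 receptors and restrains growth signalling (GRCm38 chr11:11930508-12038683, minus strand), was, per kilobase of exon, among the 3 highest of the 10 genes in every ex-fetu group and was close to absent in eUB. The 4 E11.5 UB libraries held 1092, 927, 1007 and 979.7 normalised CPM and the 4 E12.5 UB libraries 776, 969, 968 and 960.3. The 4 eUB libraries held 0.446, 0.781, 1.25 and 0.992, which rest on 6, 22, 29 and 28 reads. No eUB library came near any ex-fetu library: the mean of 0.866 was 1061-fold below that of E12.5 UB, with an interval of 809 to 1253 that covers counting error only (95%, exact binomial). In the E14-derived cells Grb10 was also low, but far above eUB. The iNP libraries held 154, 113, 181 and 172 normalised CPM and the iSP libraries 141, 122, 107 and 157. These means of 155 and 132 were 13.8-fold below E11.5 NP and 12.2-fold below E11.5 SP, and 179-fold and 152-fold above the mean of eUB. In a sorted bulk sample, fewer cells with a transcript and less of it per cell cannot be told apart.

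Plagl1, Peg13 and Nnat showed the opposite arrangement: they were near absent in the E14-derived cells and close to ex-fetu UB levels in eUB. Plagl1 encodes a zinc finger transcription factor that restrains growth (chr10:13060504-13131694, plus strand). Its 4 eUB libraries held 145, 221, 248 and 200.2 normalised CPM, against 122 to 280.1 in the 8 ex-fetu UB libraries. The 122 is E12.5 UB replicate 1; the other 7 lay between 233 and 280.1, and 3 of the 4 eUB libraries were below them. The iNP libraries held 0.528, 0.230, 1.03 and 0.956 and the iSP libraries 0.193, 0.107, 0.369 and 0.135. Only 99 reads over 4 iNP libraries and 21 over 4 iSP libraries were counted on the gene, and every ex-fetu NP or SP library was at 39.0 or above. Against the E12.5 groups, which share the iNP and iSP libraries with the comparisons at E11.5, Plagl1 was 108-fold lower in iNP (counting interval 81.7 to 123) and 3052-fold lower in iSP (2002 to 4945). Against E11.5 cells it was 156-fold (121 to 181) and 1643-fold (1099 to 2716) lower.

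Peg13, a long non-coding RNA transcribed from within an intron of Trappc9 on the same strand (chr15:72805600-72810324, minus strand), had the lowest level per kilobase of the 10 in iNP and iSP. The iNP libraries held 2, 6, 6 and 1 reads and the iSP libraries 0, 7, 3 and 2, so that 4 of these 8 libraries lay under the limit of 3 reads. The eUB libraries held 34.4, 28.3, 31.4 and 28.3 normalised CPM, against 43.8 to 49.7 in E11.5 UB and 29.9 to 37.0 in E12.5 UB. They lay below every E11.5 UB library and overlapped those of E12.5 UB. Peg13 shares no exonic base with Trappc9, but unspliced Trappc9 transcripts would be counted on it; the iNP mean of Trappc9 itself was 74.5 ± 5.89, against 64.1 ± 5.51 for E11.5 NP, which did not pass the test (log2 difference 0.21, adjusted p = 0.080).

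Nnat, a small proteolipid of internal membranes (chr2:157560078-157562522, plus strand), was low but above the limit of detection in the E14-derived cells. The iNP libraries held 1.93, 2.36, 1.99 and 1.57 normalised CPM and the iSP libraries 5.03, 3.47, 3.66 and 2.64. In eUB the 4 libraries held 252, 184, 180.1 and 175, above every E12.5 UB library (123 to 140.4) and overlapping those of E11.5 UB (156 to 184). Against E12.5 cells Nnat was 138-fold lower in iNP and 112-fold lower in iSP, with counting intervals of 125 to 159 and 105 to 129.

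**Figure D1:**
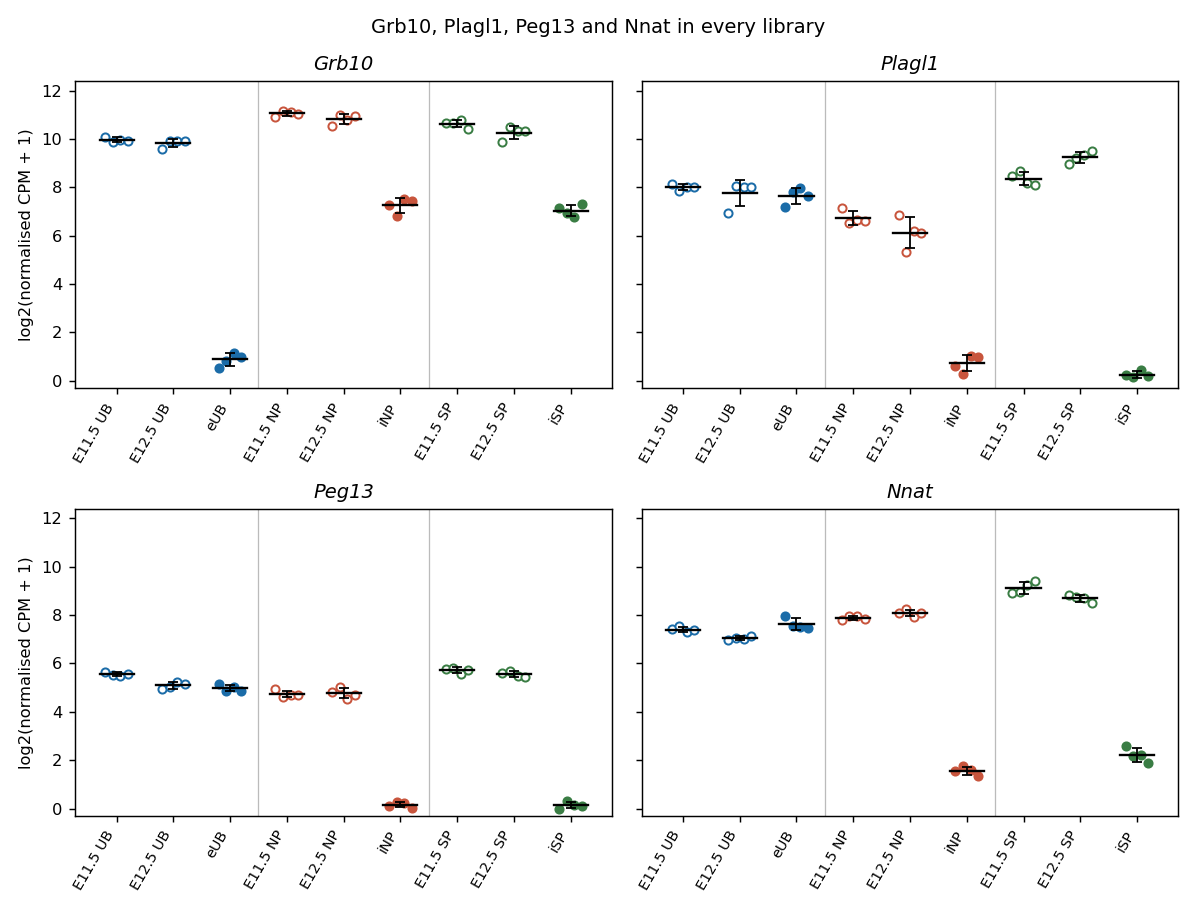
Levels of Grb10, Plagl1, Peg13 and Nnat as log2(normalised CPM + 1) in each of the 36 libraries, by group; open points are ex-fetu and filled points stem cell-derived libraries, bars show the mean and SD (n = 4). Grb10 sits near 1 in eUB and near 7 in iNP and iSP, whereas the other genes sit near 8, 5 and 8 in eUB and at or under 3 in iNP and iSP.

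The other 6 genes were never close to absent. Peg3, a zinc finger protein (chr7:6703892-6730431, minus strand), was 571 ± 142 normalised CPM in eUB, against 533 ± 38.6 in E11.5 UB and 675 ± 70.3 in E12.5 UB, and these libraries overlapped. In iNP it was 1366, 581, 1556 and 1497 in the 4 libraries, the low value being that of replicate 2, and overlapped E11.5 and E12.5 NP. In iSP it was 2493 ± 278, above all E12.5 SP libraries (874 to 1666) and overlapping E11.5 SP (1295 to 2382). Mest, a protein of the hydrolase fold family (chr6:30723547-30748465, plus strand; its exons overlap those of Copg2 on the other strand by 912 bases, so its counts are uncertain if strand was not used), was 1305 ± 239 in eUB and 1305 ± 47.2 in E12.5 UB. It was 1383 ± 75.8 in iNP against 1586 ± 138 in E11.5 NP, and 2647 ± 185 in iSP against 1708 ± 279 in E11.5 SP and 2812 ± 494 in E12.5 SP; of these only iSP and E11.5 SP did not overlap.

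Peg10, Sgce and Impact were higher in all 3 stem cell-derived groups than in the ex-fetu cells of the same type at either age, with no overlap between libraries. Peg10, which derives from a retrotransposon (chr6:4747306-4760517, plus strand), held 1502, 1516, 1489 and 1379 normalised CPM in eUB against 327 to 359 in E11.5 UB. In iNP it was 2126, 949, 2132 and 2096, replicate 2 again apart, and in iSP it was 3248 ± 136, against 466 ± 42.0 in E11.5 NP and 965 ± 110.1 in E11.5 SP. Sgce, epsilon-sarcoglycan, starts next to Peg10 on the other strand (chr6:4674350-4747207). It was 104 ± 11.6 in eUB, 53.5 ± 7.89 in iNP and 51.6 ± 3.31 in iSP, or 5.33-fold, 7.05-fold and 1.91-fold above the E11.5 group of the same type. Impact, an inhibitor of the translation kinase GCN2 (chromosome 18, 12955852 to 12992950, plus strand), was 97.2 ± 9.66 in eUB, 156 ± 14.2 in iNP and 143 ± 6.51 in iSP, against 19.5 ± 1.84, 71.5 ± 4.29 and 80.3 ± 13.6 at E11.5. Snrpn, a core protein of the small nuclear ribonucleoproteins (chr7:59982495-60140219, minus strand), differed between the stem cell-derived groups: 62.5 ± 1.89 in eUB, 31.7 ± 7.31 in iNP and 15.7 ± 1.79 in iSP, where its range of 14.2 to 18.3 overlapped both SP groups. Snrpn shares 589 exonic bases with Gm38393 and 216 with Snurf, so part of its reads may belong to those.

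**Figure D2:**
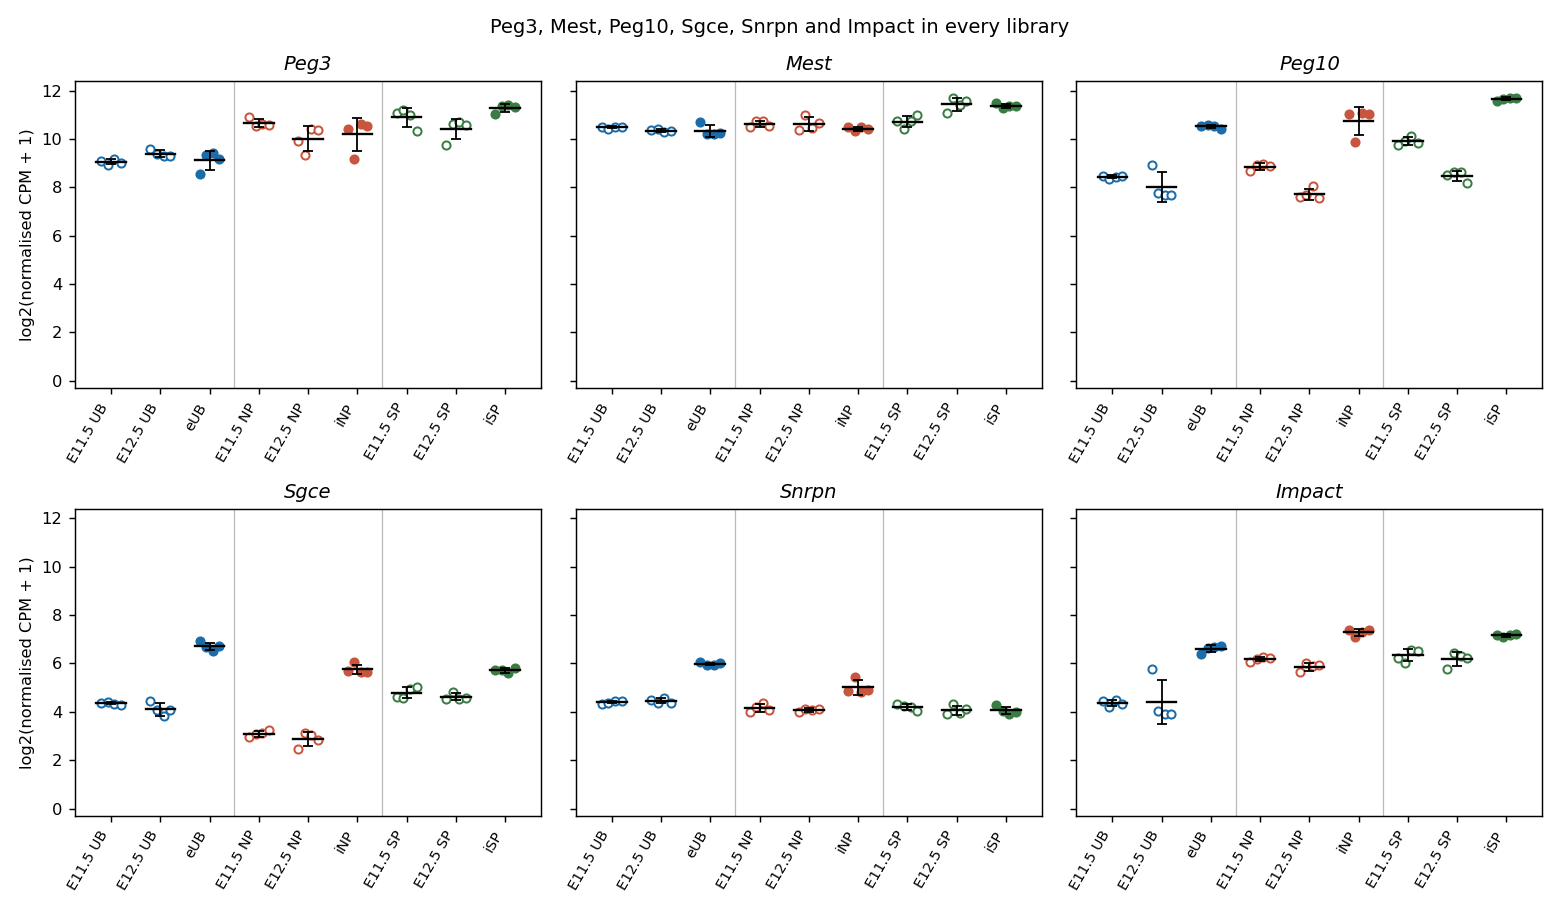
Levels of Peg3, Mest, Peg10, Sgce, Snrpn and Impact as log2(normalised CPM + 1) in each library; open points are ex-fetu and filled points stem cell-derived libraries, bars show the mean and SD (n = 4). Peg10, Sgce and Impact are higher in eUB, iNP and iSP than in every ex-fetu library of the same type, and replicate 1 of E12.5 UB is high for Peg10 and Impact.

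Counted over the 10 genes, the libraries did not overlap for 6 genes between eUB and E11.5 UB (4 higher and 2 lower in eUB), where 56.1% of all genes tested did not overlap (28.9% higher, 27.2% lower) and 60.5% passed the test. Between iNP and E11.5 NP the libraries did not overlap for 8 genes (4 higher, 4 lower; 62.4% of all genes, 33.7% higher and 28.8% lower), and between iSP and E11.5 SP for 8 genes (4 higher, 4 lower; 62.2%, 32.7% higher and 29.4% lower). Against the E12.5 groups the counts were 6, 8 and 8, where 42.6%, 44% and 58% of all genes did not overlap. Since the genes were chosen on these contrasts, the counts only describe them. Directly between the stem cell-derived groups, 7 of the 10 did not overlap between eUB and iNP (50.4% of all genes) and 10 of 10 between eUB and iSP (59.5%). The order of the genes within a group also shifted. Per kilobase of exon, Grb10 (110.2) ranked behind only Mest (364) in E11.5 UB and was last in eUB (0.0953), while Mest (331) and Peg10 (221) led there; in iSP, Mest (671) and Peg10 (487) led and Plagl1 (0.0257) and Peg13 (0.0227) were last.

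**Figure D3:**
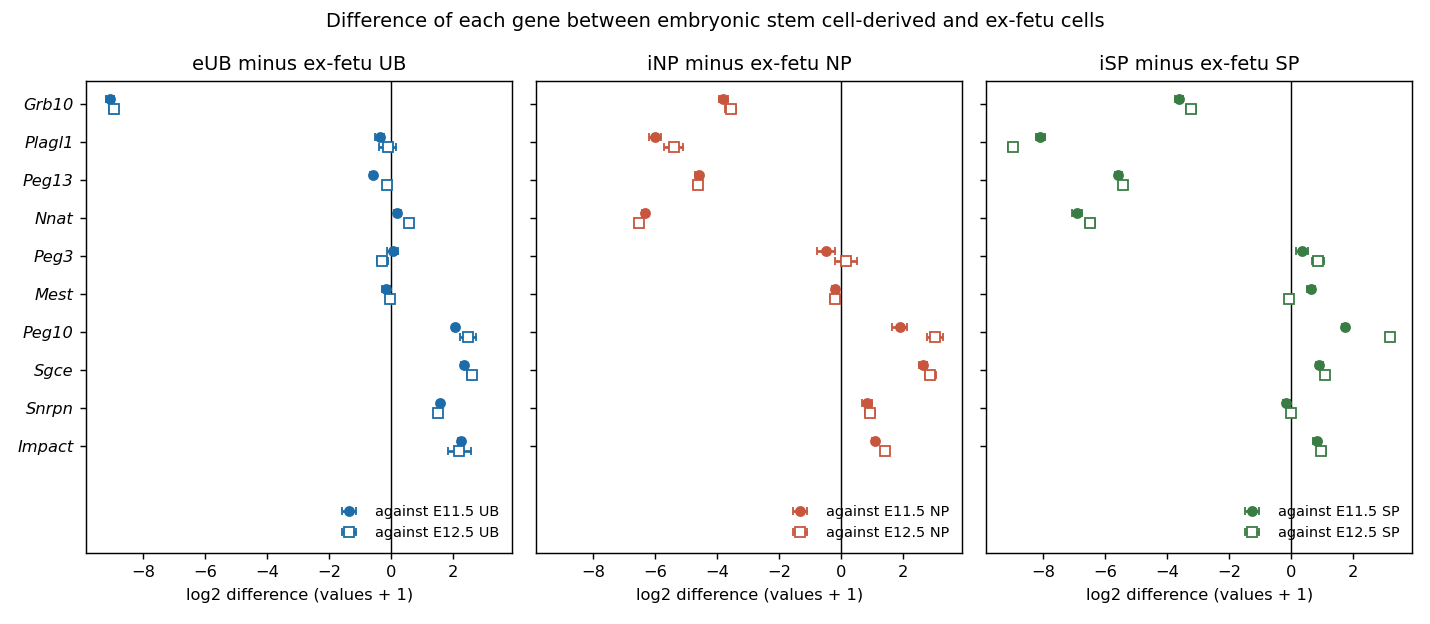
Log2 difference of each gene between stem cell-derived and ex-fetu cells on the log2(normalised CPM + 1) scale, with its standard error, for eUB, iNP and iSP; filled circles are against E11.5 and open squares against E12.5 cells, which share the stem cell-derived libraries. Grb10 lies at -9.09 in eUB against E11.5 UB and between -3.80 and -3.22 in iNP and iSP, and Plagl1, Peg13 and Nnat lie between -9 and -4 in iNP and iSP and within 1 of zero in eUB.

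Listed neighbours of the 10 genes moved in both directions. Of 22 listed neighbours in the same imprinted regions tested between eUB and E11.5 UB, 10 rose and 8 fell (81.8%, against 60.5% of all genes tested), with a median log2 difference of 0.23 against 0.02 over all genes. In iNP 8 of 20 rose and 3 fell, and in iSP 12 of 20 rose and 3 fell (55% and 75%, against 64.7% and 67.6% of all genes). Beside Grb10, Ddc and Cobl, which lie 32.4 and 197.9 kb away, fell in eUB by 0.79 and 1.36 on the log2 scale (limma adjusted p = 0.00026 and 0.00016), where Grb10 itself was 9.09 lower. Phactr2, 76.0 kb from Plagl1, rose in iNP, from a mean of 23.3 to a mean of 49.0 normalised CPM (adjusted p = 0.00091), and fell by 0.53 in iSP (adjusted p = 0.0083). Blcap, in whose intron Nnat lies on the other strand, rose in iNP (0.30, adjusted p = 0.034) and in iSP (0.59, adjusted p = 0.00037) and fell in eUB by 0.82 (adjusted p = 0.00028). Trappc9, around Peg13, rose in iSP (0.45, adjusted p = 0.0095) and in eUB (0.50, adjusted p = 0.00049). In the Peg3 region, the maternally transcribed Zim1 was at 0.428 ± 0.146 in eUB and 4.47 ± 1.53 in E11.5 UB (log2 difference -1.90, adjusted p = 2.7e-05), while Zfp264 was at 8.93 in eUB and 0.163 in E11.5 UB (3.09, adjusted p = 2.0e-07). Zim1 rose in iSP (1.02, adjusted p = 0.00023), and Usp29 rose in eUB (0.44) and iSP (0.53). Around Peg10 and Sgce, Asb4 fell in eUB by 1.09 (adjusted p = 9.6e-05) and rose in iNP (2.57, adjusted p = 1.2e-06) and iSP (1.20, adjusted p = 0.0080), and Tfpi2 rose in eUB (2.14, adjusted p = 1.3e-06). There, too, Pon2 rose in eUB (0.88) and iNP (1.17), and Pon3 in iNP (1.68) and iSP (0.55). Ppp1r9a rose in eUB (0.89) and iSP (0.96), and Calcr fell in eUB by 0.64. Beside Mest, Copg2, whose exons it overlaps, rose in iNP (0.63) and iSP (1.06). Klf14 fell in iNP by 0.90 and rose in iSP (0.999). In the Snrpn region Ube3a rose in eUB (0.42) and fell in iNP by 0.80, and Magel2 fell in iNP by 2.43 and in iSP by 0.85. Peg12 (0.36 and 0.44) and Mkrn3 (0.88 and 0.61) rose in eUB and iSP. Farther from Peg13, Chrac1 rose in eUB (0.73), iNP (0.69) and iSP (1.29), and Ago2 fell in eUB by 0.45. Ddc also rose in iNP (0.56), Cobl fell in iSP by 1.03 and Phactr2 fell in eUB by 0.68. Against E12.5 cells, 4 of these calls were not made in each of eUB (Ddc, Calcr, Usp29, Peg12), iNP (Ddc, Ube3a, Magel2, Chrac1) and iSP (Zim1, Magel2, Mkrn3, Klf14). No call changed direction, and Ddc (0.73) and Ndn (0.23) were called higher in iSP.

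**Figure D4:**
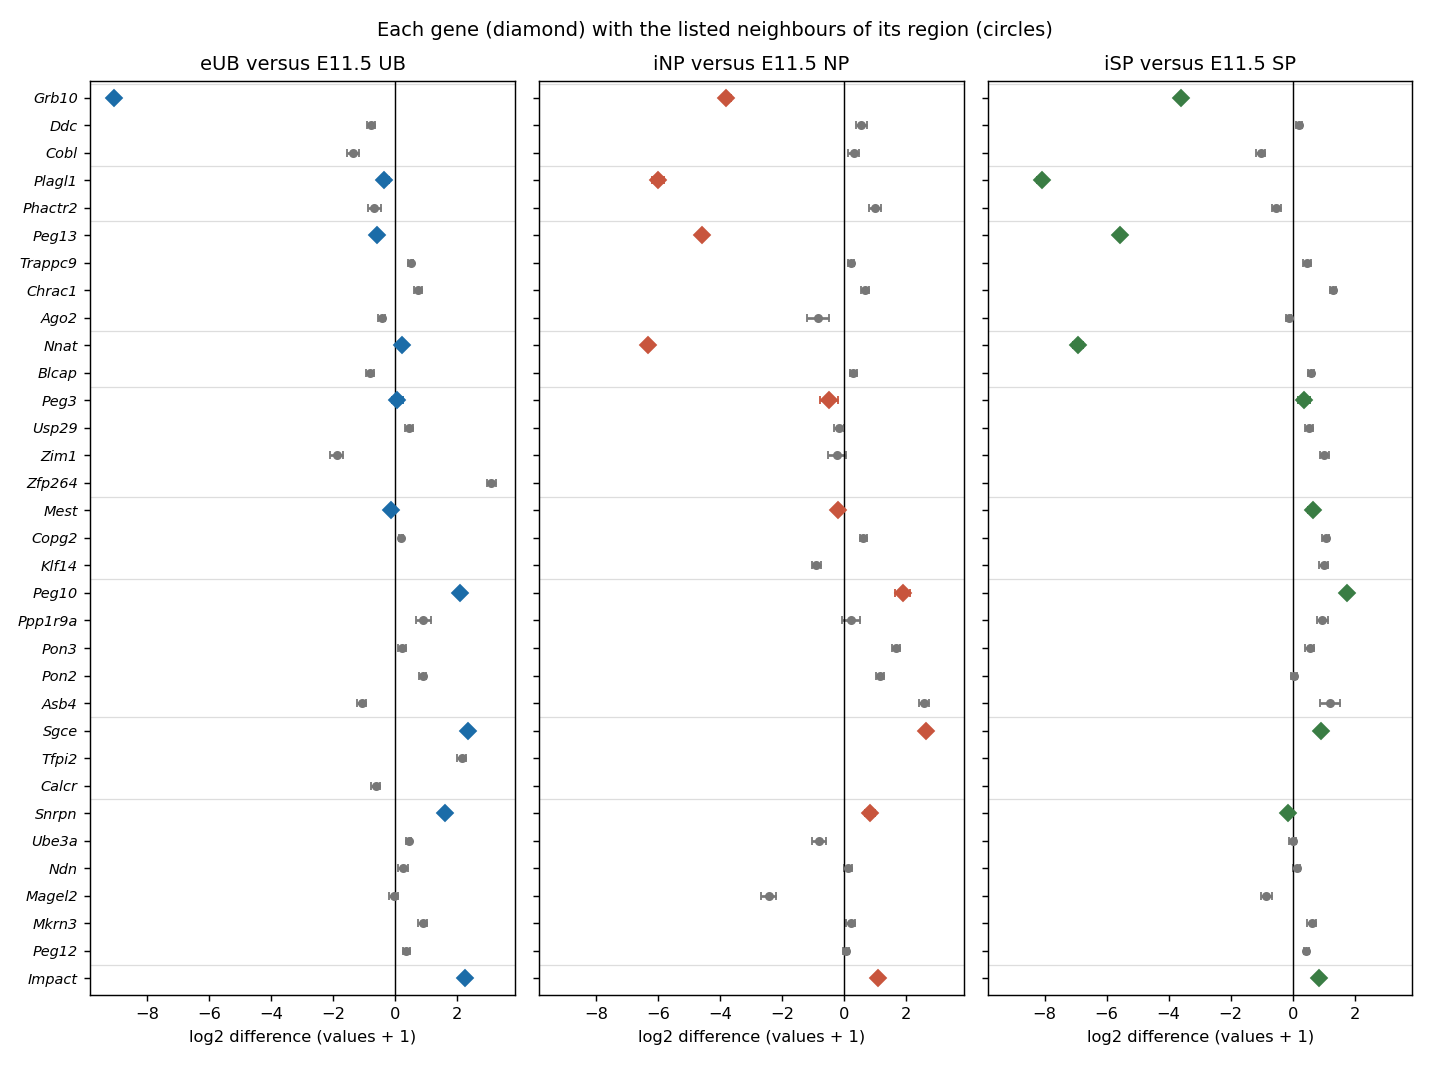
Log2 difference of each of the 10 genes (diamonds) and of the listed neighbours in its region (circles) between stem cell-derived and E11.5 cells, with standard errors, on the log2(normalised CPM + 1) scale; a neighbour without a circle did not pass the filter in that comparison. The neighbours lie between -3 and 4, far from the differences of Grb10 in eUB and of Plagl1, Peg13 and Nnat in iNP and iSP.

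Imprinted genes at other loci were tested in the same contrasts. H19, a maternally transcribed non-coding RNA, had the largest fall of the list in both E14-derived groups (-6.84 in iNP, adjusted p = 3.6e-09, and -7.44 in iSP, adjusted p = 1.9e-08), and was 2004 ± 21.0 in eUB against 2228 ± 259 in E11.5 UB (-0.15, adjusted p = 0.23). Its neighbour Igf2, the paternally transcribed growth factor, rose to 7520 ± 944 in iNP from 2248 ± 183 (1.74, adjusted p = 3.4e-06) and to 9868 ± 330.1 in iSP from 3553 ± 595 (1.49, adjusted p = 1.5e-05). Dio3 and Phlda2 also fell in both E14-derived groups (by 2.52 and 1.68 in iNP, and by 2.59 and 2.42 in iSP), and Rian rose in both (1.48 and 1.02); all of these adjusted p were at most 0.0012. In eUB the largest falls were those of Cdkn1c (by 4.14), Igf2r (by 4.12) and Phlda2 (by 3.81), whereas Igf2r rose in iNP (1.44, adjusted p = 0.00061) and Cdkn1c in iSP (0.90, adjusted p = 0.012). The 3 largest positive differences in eUB were Zrsr1 (1.20) and Cd81 (1.12), which passed the test, and Kcnq1ot1 (1.02, adjusted p = 0.057), which did not. Over the list, 5 of 26 rose and 12 fell in eUB (65.4% called, against 60.5% of all genes), 7 of 28 rose and 6 fell in iNP (46.4%, against 64.7%) and 6 of 28 rose and 12 fell in iSP (64.3%, against 67.6%). Of 14 genes that maintain imprints, 4 were called in eUB, 7 in iNP and 6 in iSP (28.6%, 50% and 42.9%, against 60.5%, 64.7% and 67.6% of all genes). Zfp57 was not called in eUB (0.16, adjusted p = 0.65) or iSP (0.33, adjusted p = 0.25) and rose in iNP (1.33, adjusted p = 4.3e-06); it was singled out after its values were seen.

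Markers of other cells moved with some of these contrasts. The 6 pluripotency markers summed to 74.2 to 101 normalised CPM in eUB, against 6.08 to 7.72 in E11.5 UB; nearly all of this was Klf2 (81.2 ± 12.8), and Nanog, Pou5f1 and Tdgf1 were at most 0.149 in any eUB library. Endothelial markers, in spite of the CD31 gate, summed to 46.0 to 76.9 in iNP and 32.7 to 50.3 in iSP, against 8.62 to 25.3 in E11.5 NP and 15.4 to 39.2 in E11.5 SP. Neuronal markers summed to 59.5 to 87.2 in iSP against 19.2 to 27.4 in E11.5 SP, and skeletal muscle markers to 27.1 to 41.9 in iNP against 12.8 to 19.5 in E11.5 NP. Summed SP markers were 367 to 464 in iNP against 278 to 323 in E11.5 NP. Summed UB markers were 94.6 to 126 in iNP against 35.7 to 63.3 in E11.5 NP, and 82.2 to 92.4 in iSP against 131 to 299.9 in E11.5 SP. Macrophage markers, present in ex-fetu UB, summed to at most 0.601 in eUB. The part of these cells in the values was not tested.

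Across the 36 libraries the genes whose log2 levels were most like Plagl1 were Peg13 (r = 0.98), H19 (r = 0.96) and Nnat (r = 0.95), out of 16001 compared. For Peg13 they were H19, Plagl1 and Nnat (all r of 0.97 or 0.98), and for Nnat they were H19 (0.98), Peg13 (0.97) and Trp53 (0.95). These libraries share their group, and without iNP and iSP the correlations over the remaining 28 fell to 0.77 for Plagl1 with Peg13, 0.29 for Plagl1 with Nnat and 0.45 for Peg13 with Nnat. Grb10 was most like Mturn (0.93), Fem1a (0.91) and Ssrp1 (0.91), and its r with Plagl1 was 0.24 over all libraries, 0.88 over the 32 without eUB and -0.50 over the 24 ex-fetu libraries. Peg3 was most like Amot (0.94), Aff2 (0.92) and Adamts3 (0.91), and none of its correlations with the other 9 genes exceeded 0.58.

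The comparison of the 2 cell types made from the E14 line could be tested, since it did not enter the choice. Plagl1 and Peg13 were too low to pass the filter, and of the 8 genes tested 5 were called, against 30.7% of all genes. Peg3, Mest, Peg10 and Nnat were lower in iNP than in iSP and Snrpn was higher. Mest differed by -0.94 ± 0.10 (SE) on the log2 scale (limma adjusted p = 6.2e-05) and Snrpn by 0.95 ± 0.15 (adjusted p = 0.0010), with no overlap between libraries. Nnat differed by -0.65 ± 0.16 (adjusted p = 0.013), at levels of 1.57 to 2.36 against 2.64 to 5.03 normalised CPM. Peg3 (-1.09 ± 0.29, adjusted p = 0.018) and Peg10 (-0.90 ± 0.25, adjusted p = 0.021) were no longer called without any of iSP replicates 2, 3 and 4 (adjusted p between 0.050 and 0.057). Without iNP replicate 2 both calls stood, and Grb10 (0.37, adjusted p = 0.023) and Impact (0.19, adjusted p = 0.015) were called as well, higher in iNP. With all libraries these differed by 0.23 and 0.12 (adjusted p = 0.34 each). That fit called 43.8% of all genes.

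In ex-fetu kidneys most of the 10 genes differed between cell types at both ages. At E11.5, 9 of 10 were called between UB and NP (60.2% of all genes), 7 between UB and SP (53.6%) and 6 between NP and SP (43.1%). At E12.5, 6 were called between UB and NP (32.7%), 9 between UB and SP (46.4%) and 7 between NP and SP (34.8%). NP cells had the highest Grb10: the 4 E11.5 NP libraries held 1925, 2280.0, 2246 and 2090 normalised CPM, above SP by 0.41 ± 0.11 (adjusted p = 0.011) and above UB by 1.09 ± 0.08 (adjusted p = 9.0e-08). SP cells had the highest mean Plagl1, Peg13, Nnat, Peg10 and Sgce of the ex-fetu types at both ages, although SP and UB were not called apart for Peg13 at E11.5 (adjusted p = 0.17) or for Peg10 at E12.5 (adjusted p = 0.20). Plagl1 was lower in NP than in SP by 1.62 ± 0.17 at E11.5 and by 3.12 ± 0.28 at E12.5 (adjusted p = 5.8e-05 and 2.5e-05), with 39.0 to 116 normalised CPM in E12.5 NP against 500.2 to 718 in E12.5 SP. Nnat was lower in UB than in SP by 1.72 ± 0.12 at E11.5 and by 1.65 ± 0.09 at E12.5 (adjusted p = 8.9e-07 and 1.1e-06). Peg3 and Impact had their lowest means in UB at both ages, with Peg3 not called between UB and NP at E12.5 (-0.63, adjusted p = 0.062, against -0.85 and 0.0024 without E12.5 NP replicate 2). At E11.5 Impact was 19.5 ± 1.84 in UB, 71.5 ± 4.29 in NP and 80.3 ± 13.6 in SP (UB against NP -1.82 ± 0.08, adjusted p = 1.9e-09).

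Several of the smaller differences lay near the threshold and needed nearly every library. Snrpn, 0.24 higher in UB than in NP at E11.5 (adjusted p = 0.045), Plagl1, 0.34 lower in UB than in SP at E11.5 (adjusted p = 0.048), and Grb10, 0.42 lower in UB than in SP at E12.5 (adjusted p = 0.037), were called in few of the fits that left out 1 library. The Snrpn call stood only without E11.5 NP replicate 3, the Plagl1 call only without E11.5 SP replicate 3 or 4, and the Grb10 call only without E12.5 SP replicate 1, with adjusted p between 0.061 and 0.13 in the other fits. At E12.5 the same held for Snrpn in UB against SP (0.38, adjusted p = 0.036), which was called only without E12.5 SP replicate 2 (0.37 and 0.057 without UB replicate 1, 0.33 and 0.052 without SP replicate 1). The Sgce call in UB against SP ended without E12.5 SP replicate 2 or UB replicate 2, 3 or 4 (adjusted p between 0.051 and 0.063). That of Impact in UB against NP ended without UB replicate 2, 3 or 4 (0.058 to 0.060), that of Snrpn in UB against NP without any of these or NP replicate 3 or 4 (0.060 to 0.11), and that of Grb10 in NP against SP without NP replicate 3 or 4 (0.053 and 0.070). Some calls were made only without 1 library. At E11.5 these were Mest in UB against NP without NP replicate 1 (-0.18, adjusted p = 0.022, against -0.14 and 0.12), Mest in UB against SP without SP replicate 2 (-0.34, adjusted p = 0.019, against -0.23 and 0.14) and Peg3 in NP against SP without SP replicate 4 (-0.42, adjusted p = 0.012, against -0.23 and 0.34). At E12.5 Peg13 in UB against NP was called without NP replicate 2 (0.41, adjusted p = 0.029, against 0.32 and 0.10). Without E12.5 UB replicate 1, Peg10 was lower in UB than in SP at E12.5 (-0.76, adjusted p = 0.0012, against -0.46 and 0.20 with it), Impact was 1.92 rather than 1.47 lower in UB than in NP, and Grb10 was no longer called between UB and SP (-0.34, adjusted p = 0.077). The replicate numbers of E12.5 NP and SP deviated together, and with the number as a block Impact was also called there (-0.32, adjusted p = 0.010, against 0.16 without the block). Impact was likewise called there without E12.5 SP replicate 1 (-0.45, adjusted p = 0.026).

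With age, Peg10 fell in both mesenchymal types. In NP its 4 libraries went from 405, 480.1, 503 and 475 normalised CPM at E11.5 to 191, 203, 263 and 189.9 at E12.5, without overlap, a log2 difference of -1.14 ± 0.13 (adjusted p = 0.0022). Summed NP markers were 1433 to 1617 at E11.5 and 1452 to 2249.7 at E12.5 in these NP libraries, and skeletal muscle markers 12.8 to 19.5 and 4.44 to 12.9. E12.5 NP replicate 1 had the highest UB (96.2) and pluripotency (14.5) sums of the 8, and the part of these in the NP values was not tested. In SP the Peg10 libraries went from 867, 963, 1119 and 910.3 to 359, 391, 393 and 286 (-1.44 ± 0.14, adjusted p = 0.0013). Peg10 was the 1 gene of the 10 called in NP, where 6.34% of all genes were, and 3 were called in SP (8.52%). Leaving out 1 library moved these shares of all genes between 1.11% and 17% in NP and between 2.91% and 21.5% in SP. The highest were without E12.5 NP replicate 1, where Plagl1 was also called (-0.85, adjusted p = 0.040), and without E12.5 SP replicate 1. In SP, Plagl1 rose from 274 to 409 normalised CPM at E11.5 to 500.2 to 718 at E12.5 (0.90 ± 0.17, adjusted p = 0.012). Mest rose from 1357 to 2041 to 2179 to 3333 (0.72 ± 0.17, adjusted p = 0.034), a call that ended without any of E11.5 SP replicates 1, 2 and 3 or E12.5 SP replicates 2, 3 and 4 (adjusted p between 0.087 and 0.12). Other markers moved with age in these libraries. Summed UB markers were 131 to 299.9 in E11.5 SP and 86.2 to 123 in E12.5 SP, and summed NP markers were 172 to 232 and 216 to 363. Summed SP markers were 1309.9 to 1719 and 1375 to 2175, and the part of these in the SP values was not tested.

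In UB, 3 of the 10 genes were called (26.5% of all genes): by the titles, Peg13 (-0.47 ± 0.08, adjusted p = 0.0037) and Nnat (-0.36 ± 0.07, adjusted p = 0.0049) were lower and Peg3 (0.34 ± 0.08, adjusted p = 0.018) was higher at E12.5. Nnat held 169, 184, 156 and 166 normalised CPM at E11.5 and 123, 130.3, 129.9 and 140.4 at E12.5, without overlap. The Peg3 call ended without E11.5 UB replicate 2 or 4 (adjusted p = 0.054 each). Without E12.5 UB replicate 1, 6 of 10 were called, in a fit that called 44% of all genes. Peg10 then differed by -0.73 (adjusted p = 9.5e-07, against -0.43 and 0.23 with that library). Sgce differed by -0.37 (adjusted p = 0.0070, against -0.26 and 0.16). Impact differed by -0.41 (adjusted p = 0.0047), and by 0.04 in the other direction with that library (adjusted p = 0.95). In that library Peg10 was 484 and Impact 53.1, against 203 to 219 and 13.8 to 15.4 in the other E12.5 UB libraries. Summed UB markers were 3216 to 3455 at E11.5 and 1946 to 3002 at E12.5, the 1946 being that of E12.5 UB replicate 1. Summed macrophage markers were lower at E12.5 in median (46.7 against 80.3). The part of these in the UB values was not tested.

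**Figure D5:**
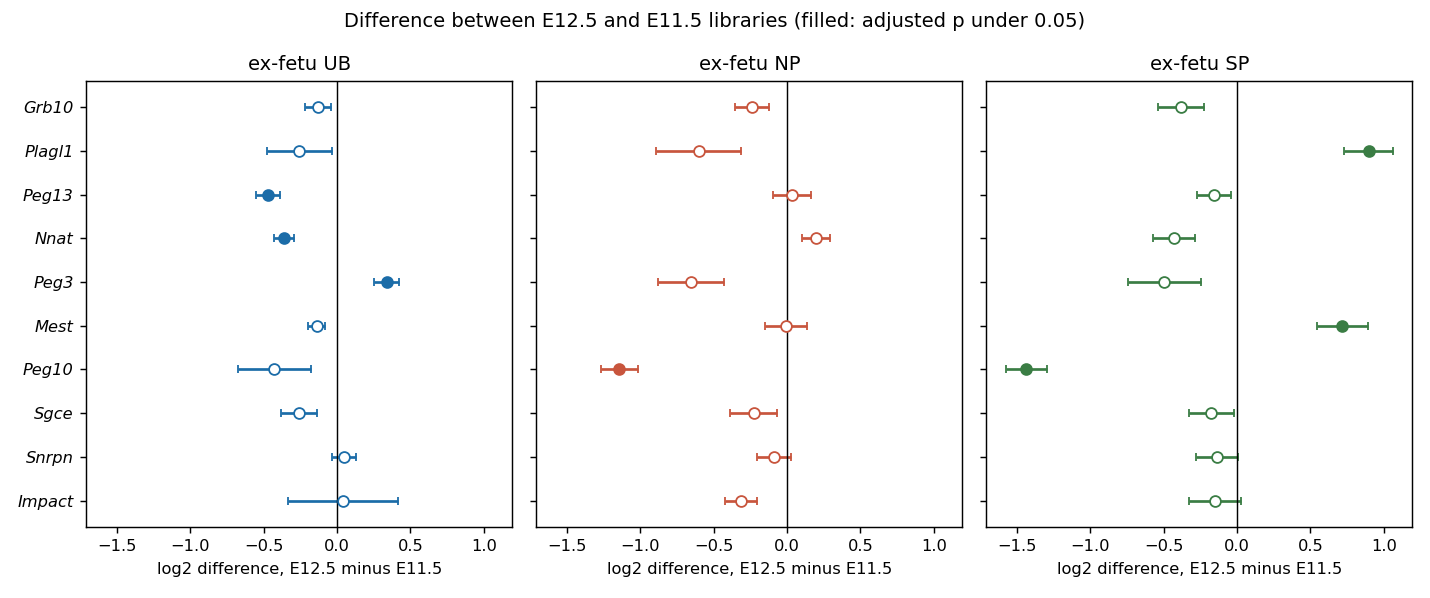
Log2 difference of each gene between E12.5 and E11.5 libraries of ex-fetu UB, NP and SP cells, with its standard error; filled points have a limma adjusted p-value under 0.05. Peg10 is lower at E12.5 in NP (-1.14) and SP (-1.44), and Plagl1 is higher in SP (0.90) while it lies at -0.26 in UB (0.01 without E12.5 UB replicate 1) and -0.60 in NP.

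The changes with age were compared between cell types with an interaction term. By the titles, Nnat changed differently in UB and NP (-0.56 ± 0.11, adjusted p = 0.016, with 1 of 10 genes called against 2.21% of all genes). Its means were 169 and 131 normalised CPM in UB and 236 and 271 in NP. With the UB ages exchanged, its mean would rise with age in both types, and the size of every UB interaction would change. Fits with exchanged ages were not run. Plagl1 and Mest changed differently in UB and SP (-1.15 ± 0.30, adjusted p = 0.036, and -0.86 ± 0.18, adjusted p = 0.015; 2 of 10 against 4.24%). Plagl1 also changed differently in NP and SP (-1.50 ± 0.35, adjusted p = 0.032; 1 of 10 against 2.69%). Both Plagl1 interactions ended without any of 9 of the 16 libraries (adjusted p between 0.053 and 0.085). These were replicates 1 and 3 of E11.5 SP and 2, 3 and 4 of E12.5 SP for both, with all 4 of E11.5 UB for the first and with replicates 1 and 3 of E11.5 NP and 3 and 4 of E12.5 NP for the second. The Nnat interaction in UB against NP and the Mest interaction in UB against SP stood without each library in turn. With all 36 libraries in 1 fit, however, Nnat was not called in UB against NP, and by edgeR Plagl1 was not called in NP against SP. Without E12.5 SP replicate 1, the interactions of Nnat (0.67) and Mest (-0.84) in NP against SP were called as well (adjusted p = 0.033 each). With that library they were 0.63 (adjusted p = 0.056) and -0.72 (adjusted p = 0.11). Without E12.5 UB replicate 1, that of Peg10 in UB against SP was called (0.71, adjusted p = 0.011, against 1.01 and 0.074 with it). The Nnat interaction in NP against SP was also called without E11.5 SP replicate 1 (0.70, adjusted p = 0.042). For Peg3 the interaction in UB against NP was 0.99 (adjusted p = 0.056) and was called without E12.5 NP replicate 2, 3 or 4 (adjusted p between 0.026 and 0.037). Its interaction in UB against SP was 0.83 (adjusted p = 0.12) and was called without E11.5 SP replicate 4 (1.02, adjusted p = 0.017).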

How the data were processed

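Poly(A) RNA of 36 samples, 4 in each of 9 groups, was sequenced as stranded paired-end libraries. Cutadapt was used by the authors for trimming and STAR for alignment, and the deposited signal values are CPM after scaling by normalisation factors from edgeR; which program counted reads, whether it used strand, and which annotation release and gene filter applied are not given in the sources used here. The genome is written as GRCh38, but the identifiers are those of mouse Ensembl genes, and 22642 of 22761 (99.5%) were found in GENCODE vM21, the source of positions (GRCm38). In every library 100% of values were whole multiples of 1 read (tolerance 0.01), so reads were recovered. The deposited columns of group means and of the authors' edgeR comparisons were not used.

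A gene entered a fit if 4 or more of its libraries reached 1. Values were then compared as log2(value + 1) by limma 3.58.1 (eBayes with trend) in R 4.3.3, on the 8 libraries of a comparison or the 16 of an interaction, with Benjamini-Hochberg adjustment over all genes tested and genes under 0.05 counted as called. The scale understates differences of low genes, for which folds of mean values are given. Scripts were tested on simulated data. Alternatives were a pseudocount of 0.1, no filter, a filter of 5, quantile normalisation, plain CPM, edgeR 4.0.16 on the recovered reads, all 36 libraries in 1 fit, the replicate number as a block, and each library left out. Named were all 10 genes, every neighbour called against an ex-fetu group, the 3 largest differences in each direction among imprinted genes at other loci, and the 3 genes most like each of 5 members by Pearson's r. The members and lists were chosen with earlier results of these data known. Of the listed genes, 24 of 28 neighbours, 35 of 37 genes at other loci and 15 of 16 maintenance genes were in the table. The replicate numbers come from the titles. They were taken as pairing only E12.5 NP and SP, where the deviations of all 4 same-numbered pairs correlated (0.54 to 0.70). Samples labelled as replicates were separate mice or batches. Python 3.11.15, pandas 2.3.3 and scipy 1.17.1 were used for the other steps.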

Additional observations from a re-analysis of the deposited data

Results flagged for a closer look

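Over the 10 genes and 9 groups, 1 library lay far from the other 3 of its group in 12 of the 90 sets of 4 values, by Dixon's test at the 95% level, where chance gives about 1 in 20. Replicate 1 of E12.5 UB accounted for 4 of them, with Grb10 at 776 and Plagl1 at 122 normalised CPM below the rest and Peg10 at 484 and Impact at 53.1 above. Replicate 2 of iNP accounted for 3, with Peg10 at 949 below the rest and Sgce at 65.3 and Snrpn at 42.6 above. Replicate 1 of eUB accounted for 2, with Nnat at 252 and Mest at 1662 above the rest. The others were Plagl1 at 143 in E11.5 NP replicate 1, Mest at 1362 in E11.5 UB replicate 2 and Sgce at 27.4 in E12.5 SP replicate 2.

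The change with age differed between cell types, by a test of the interaction itself, for Nnat in UB against NP (log2 difference -0.56), for Plagl1 and Mest in UB against SP (-1.15 and -0.86) and for Plagl1 in NP against SP (-1.50). The size of the UB terms, their calls and in part their sign depend on the ages in the sample titles.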

How the results depend on the processing

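The number of the 10 genes called stayed the same under all 8 alternatives that kept every library for age in NP and for E11.5 NP against SP, and changed under at least 1 of them in the other 11 of 13 comparisons. It moved by over 1.5 times in the following. Between iNP and iSP, 5 were called and 3 with quantile normalisation. For the change with age, UB against NP gave 1, and 0 with all 36 libraries in 1 limma fit, where 4 of the 10 had an unadjusted p under 0.05 (the edgeR count was 1); UB against SP gave 2, and 1 with no filter; NP against SP gave 1, with 2 under quantile normalisation, 2 with plain CPM, 3 with all 36 libraries and 0 by edgeR, where 3 had an unadjusted p under 0.05. The causes were not tested. Leaving out 1 library at a time gave 2 to 6 for age in UB, 1 to 2 for age in NP, 3 to 7 between iNP and iSP, 1 to 2 for the change in UB against NP, 1 to 3 in UB against SP and 0 to 3 in NP against SP. It gave 7 to 15 called neighbours and 9 to 17 called genes at other loci between eUB and E12.5 UB (14 and 15 with all libraries), and 8 to 14 called neighbours between eUB and iNP (14 with all). Calls over all genes moved with these counts: from 2332 to 5982 for age in UB, 147 to 2249 in NP, 392 to 2889 in SP and 3281 to 5983 between iNP and iSP. Impact in UB with age ranged from -0.41 to 0.21 on the log2 scale, the first without E12.5 UB replicate 1.

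The replicate number as a block gave 8 called genes against 7 between E12.5 NP and SP, where the pairing held. Elsewhere no pairing was assumed, but the sources do not say which same-numbered samples came from the same kidneys or embryoid bodies. With the block, 3 were called for age in UB, 1 in NP and 2 in SP. At E11.5, 8 were called between UB and NP against 9 without the block, and 6 between UB and SP against 7. At E12.5, 5 were called between UB and NP against 6, and 8 between UB and SP against 9. Over all genes the block gave 2365 calls for age in UB against 3648, and 7961 against 4789 between E12.5 NP and SP. All-gene counts also moved by over 1.5 times for age in NP (850, with 469 under a filter of 5 and 1572 with all 36 libraries), age in SP (1162, with 762 and 3141), and the interactions UB against NP (324, with 210 at a pseudocount of 0.1 and 198 by edgeR), UB against SP (632, with 1236 for all 36) and NP against SP (388, with 222 under a filter of 5 and 780 for all 36).

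Differences of near-absent genes depend on the scale. Grb10 in eUB against E11.5 UB was -9.09 with a pseudocount of 1, -10.09 with 0.1 and -10.14 by edgeR, and Peg13 in iNP against E11.5 NP was -4.59, -6.99 and -7.85. Depth limits these values: no iNP or iSP library held more than 7 reads on Peg13 or 42 on Plagl1.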
